A study of Mus musculus with 8 samples.

Results

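Interferon receptors, the kinases bound to them and the interferon regulatory factors above and below them were followed in mouse white matter after a short exposure to cuprizone, a copper chelator that kills oligodendrocytes when it is fed to mice. The 10 genes were taken as a set of names: the receptor chains Ifnar1, Ifnar2, Ifngr1 and Ifngr2, the Janus kinases Jak1 and Tyk2, and the interferon regulatory factors Irf1, Irf3, Irf5 and Irf8. All 10 had a transcript cluster with exactly 1 gene symbol on the array, out of 19938 genes with such a cluster, and the cluster with the highest mean over all arrays stood for the gene. Corpus callosum, the tract of myelinated fibres between the hemispheres, was dissected from male C57BL/6 mice with a wild-type genotype, labelled as 8 weeks old, after perfusion. The control group had 4 arrays from mice on normal diet, and the cuprizone group had 4 arrays from mice given 0.25% cuprizone for 1 week. The labels call the arrays of a group biological replicates and do not say whether animals were pooled. Values are log2 levels, so a difference of 1 is a 2-fold change. Levels of different clusters are not ranked against each other, and where a difference between clusters is given, it is its change between the groups that is read. Whole tissue was measured, so more cells of a type and more RNA per cell cannot be told apart.

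Type I interferons bind a receptor made of the chains IFNAR1 and IFNAR2, which carry the kinases TYK2 and JAK1. Interferon gamma binds IFNGR1 and IFNGR2, which carry JAK1 and JAK2. The kinases activate STAT proteins, which enter the nucleus and bind interferon response elements in their target genes. IRF3 and IRF5 act above interferon production, downstream of nucleic acid sensors and Toll-like receptors. IRF1 is itself induced by interferons, and IRF8 is a lineage factor of myeloid cells that microglia, the resident macrophages of the brain, need for their development.

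After 1 week of cuprizone, Irf8, Irf5 and Ifngr1 were higher, and the other 7 genes did not pass the threshold. Irf8 rose 1.52-fold, Irf5 rose 1.26-fold and Ifngr1 rose 1.2-fold, each at an adjusted p under 0.05 in limma over all 23410 clusters tested. No member was lower. The share of all tested clusters called higher was 4.71%, and the share called lower was 3.52%, against 3 of 10 members higher and 0 of 10 lower. Of the rest, Irf3 passed only an unadjusted p of 0.05. The median log2 fold change of the 10 members was 0.10, beside -0.01 for all tested clusters. All 3 increases were small, and none passed when tested against a 1.2-fold change.

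The arrays had similar distributions, with medians of 7.44 to 7.49 over the tested clusters, and correlations within a group ran from 0.9952 to 0.9971. On the first principal component, which separated the groups, control replicate 2 and cuprizone replicate 2 lay closer to the other group than the rest. Values without these arrays are given below where a member's call rests on them.

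Irf1 is represented on the array by a pair of single-symbol clusters, whose estimates had opposite signs, though neither cluster passed the threshold. The brighter cluster (10385870), which the naming rule selects, is annotated with 1 cDNA record and 0 RefSeq mRNAs. The dimmer cluster (10376060) is annotated with 8 records, of which 3 are RefSeq mRNAs, and is called the RefSeq cluster of Irf1 below. Each of the other 9 members had 1 such cluster, annotated with at least 1 RefSeq mRNA.

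Promoter sequences show where the members differ in elements that interferon signalling is known to use. The windows run from 250 bases before to 50 bases after a start site, on the gene's strand, from RefSeq with the build GRCm38.p6. All 10 members had a window, and Irf1 and Irf8 had 2 each. The gamma-activated site, GAS, which STAT dimers bind, was searched as TTCNNNGAA, whose reverse complement is the same motif. It was present in 4 of the 12 windows, those of Ifnar1, Ifnar2, Irf1 and Irf8, and in 8.3% of all 32851 windows of this length. The interferon-stimulated response element, searched on both strands as GAAA, any 2 bases and GAAA, was in 0 of the 12 windows and in 3.44% of all windows. The composite element of ETS factors with IRFs, searched on both strands as GGAA, any 2 bases and GAAA, was in 0 of the 12 and in 2.72% of all windows. The windows of Irf1 and Irf8 are shown because these are the members known as interferon gamma targets, and capitals mark the GAS matches. Those of the receptor genes Ifnar1 and Ifnar2 are shown as the other windows with a match.
Irf1, chr11:53769764-53770063, + strand: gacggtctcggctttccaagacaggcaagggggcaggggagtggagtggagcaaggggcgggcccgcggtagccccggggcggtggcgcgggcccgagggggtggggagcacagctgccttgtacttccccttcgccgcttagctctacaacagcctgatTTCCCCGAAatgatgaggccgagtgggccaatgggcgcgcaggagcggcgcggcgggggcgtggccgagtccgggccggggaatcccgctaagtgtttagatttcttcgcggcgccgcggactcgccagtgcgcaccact
Irf8, chr8:120736108-120736407, + strand: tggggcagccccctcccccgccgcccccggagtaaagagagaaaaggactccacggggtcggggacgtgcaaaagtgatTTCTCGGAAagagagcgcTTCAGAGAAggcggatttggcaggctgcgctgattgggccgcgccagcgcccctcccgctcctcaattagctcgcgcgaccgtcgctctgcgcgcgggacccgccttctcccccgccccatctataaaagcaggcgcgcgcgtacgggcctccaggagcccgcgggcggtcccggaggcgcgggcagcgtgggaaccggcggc
Ifnar1, chr16:91484965-91485264, + strand: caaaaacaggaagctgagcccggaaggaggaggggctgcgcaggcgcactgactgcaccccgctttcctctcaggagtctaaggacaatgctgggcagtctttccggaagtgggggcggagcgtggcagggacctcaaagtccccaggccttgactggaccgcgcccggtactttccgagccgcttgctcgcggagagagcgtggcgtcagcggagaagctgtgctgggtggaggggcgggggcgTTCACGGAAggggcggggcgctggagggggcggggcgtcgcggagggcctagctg
Ifnar2, chr16:91372533-91372832, + strand: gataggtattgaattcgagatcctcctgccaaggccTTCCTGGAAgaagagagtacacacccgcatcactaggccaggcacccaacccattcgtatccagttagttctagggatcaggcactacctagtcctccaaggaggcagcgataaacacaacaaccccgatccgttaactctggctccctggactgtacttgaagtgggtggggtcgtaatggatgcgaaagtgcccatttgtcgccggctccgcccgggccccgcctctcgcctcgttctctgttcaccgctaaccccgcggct

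The Irf1 match begins 90 bases before the start site. The Irf8 window has 2 matches, beginning 171 and 153 bases before the start. In Ifnar1 the match begins 5 bases before the start, and in Ifnar2 it begins 214 bases before it. The windows of Irf5 and Ifngr1, the other members that were higher with cuprizone, held none of the 3 motifs, and neither did the second windows of Irf1 and Irf8. A match in these letters is not a measured binding site.

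Among the receptor chains, Ifngr1, the chain that binds interferon gamma, was the member that passed the test. Its log2 levels (transcript cluster 10361897) were 8.77, 8.79, 8.82 and 8.76 on control replicates 1 to 4 and 8.92, 9.03, 9.15 and 9.10 on cuprizone replicates 1 to 4. Every cuprizone array lay above every control array, and cuprizone replicate 1 lay closest to the controls. The log2 fold change was 0.27 ± 0.06 (SE), with a 95% interval of 0.13 to 0.40 and a limma adjusted p of 0.0193. The adjusted p was 0.0534 without control replicate 1, 0.0575 without control replicate 4, 0.0564 without cuprizone replicate 3 and 0.0523 without cuprizone replicate 4. It was 0.0801 without both arrays numbered 2, at a log2 fold change of 0.28.

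Ifngr2, the signalling chain of the same receptor, stood at 10.11, 9.93, 10.15 and 9.98 on the controls and at 10.09, 10.11, 10.31 and 10.04 on the cuprizone arrays. The groups overlapped, with cuprizone replicate 3 highest, and the log2 fold change was 0.09 with a 95% interval of -0.07 to 0.26 (limma adjusted p = 0.563). Whether the 2 chains changed by different amounts was tested on their within-array difference. Ifngr1 minus Ifngr2 went from a mean of -1.26 to -1.08, a change of 0.18 (exact two-sided permutation test over 70 assignments, p = 0.0857, adjusted over 5 pairs p = 0.1429). The smallest p of this test is 0.0286, and 1 pair alone at that p has an adjusted p of 0.1429. A single pair therefore could not pass after adjustment, and the adjusted p does not show that paired members changed alike.

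The chains of the type I receptor did not pass the test. Ifnar1, which recruits TYK2, stood at 8.64, 8.56, 8.67 and 8.60 on the controls and at 8.58, 8.65, 8.74 and 8.64 on the cuprizone arrays. These ranges overlapped almost fully, and the log2 fold change was 0.04 with a 95% interval of -0.09 to 0.16 (limma adjusted p = 0.796). Ifnar2, which binds the ligand with high affinity and carries JAK1, stood at 8.94, 8.80, 8.83 and 8.75 on the controls and at 8.87, 8.85, 9.05 and 8.97 on the cuprizone arrays. Its groups overlapped as well, and the estimate was 0.11 on the log2 scale, with an interval of -0.03 to 0.25 (limma adjusted p = 0.395). The change of Ifnar1 minus Ifnar2 was -0.07 (exact permutation p = 0.2, adjusted over 5 pairs p = 0.25). For both chains a rise of more than 1.19-fold lies outside the interval.

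A gene that lies between these receptor genes did pass. In the RefSeq gene table the protein-coding order is Ifnar2, Il10rb, Ifnar1 and Ifngr2, and Il10rb encodes a chain shared by the receptors for interleukin 10 and interferon lambda. Il10rb stood at 7.52, 7.34, 7.61 and 7.39 on the controls and at 7.74, 7.87, 7.95 and 7.92 on the cuprizone arrays. It rose by 0.41 ± 0.07 on the log2 scale (limma adjusted p = 0.00583), with no overlap between the groups. Its difference from its neighbours was not tested.

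The receptor kinases showed the smallest changes of the 10 members. Jak1, which serves both interferon receptors, stood at 10.31, 10.24, 10.27 and 10.17 on the controls and at 10.24, 10.24, 10.30 and 10.30 on the cuprizone arrays. Its log2 fold change was 0.02 ± 0.05 (SE), with a 95% interval of -0.09 to 0.14 (limma adjusted p = 0.867). Tyk2, the partner kinase at IFNAR1, stood at 7.72, 7.46, 7.62 and 7.57 on the controls and at 7.50, 7.60, 7.62 and 7.66 on the cuprizone arrays. Its cuprizone arrays lay within the control range, and the estimate of 0.00 ± 0.07 has an interval of -0.14 to 0.15 (limma adjusted p = 0.986). Its sign turned when either of 2 rescalings of the arrays was applied. The within-array difference Jak1 minus Tyk2 changed by 0.02 (exact permutation p = 0.6857, also after adjustment over 5 pairs).

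**Figure D1:**
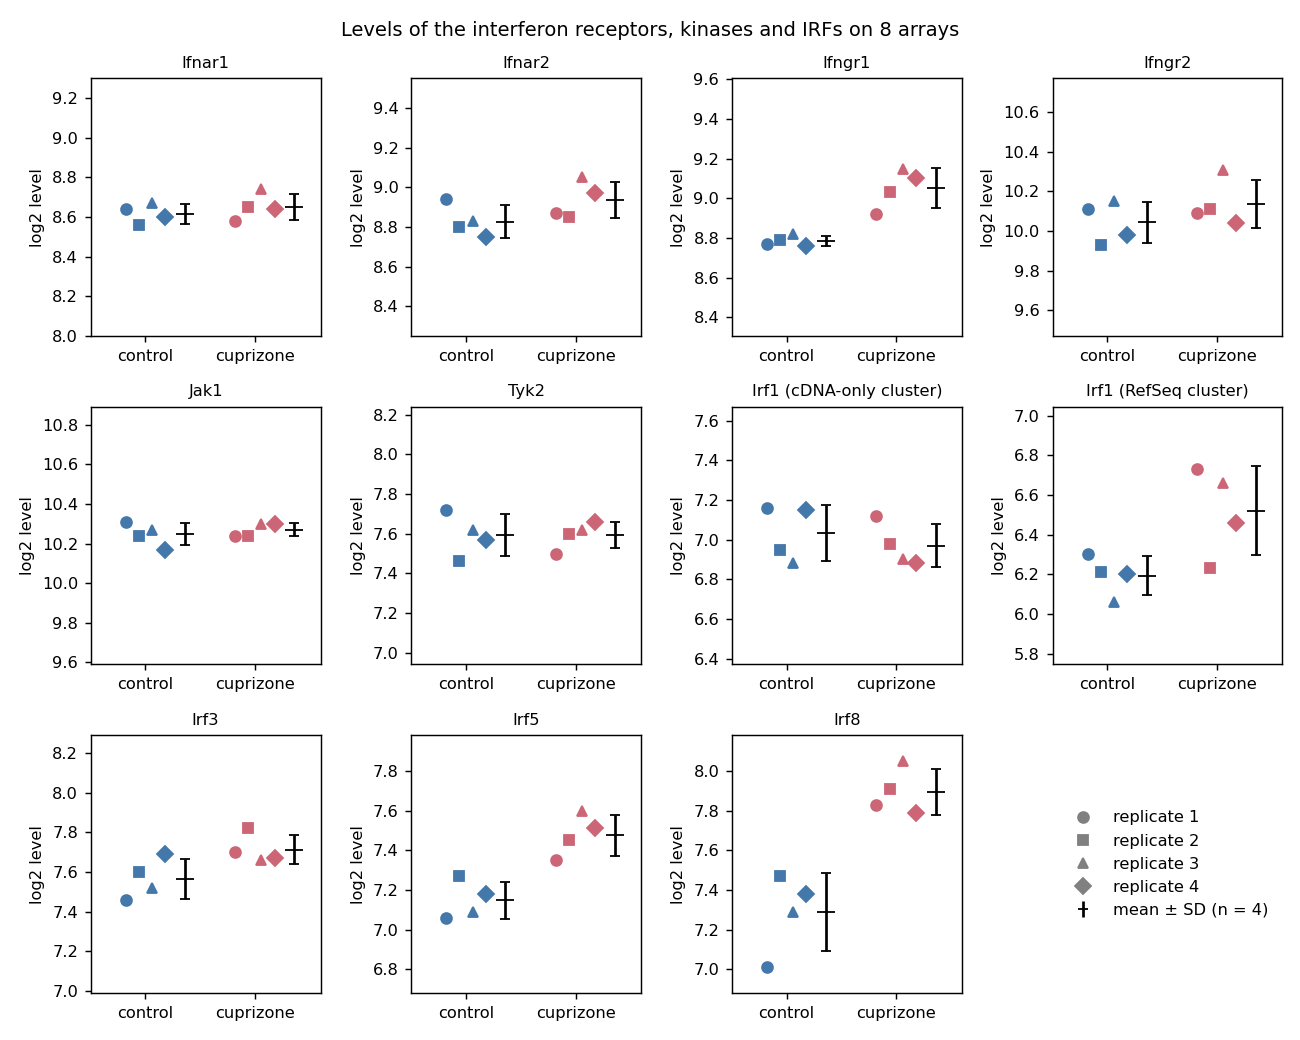
Log2 level of each cluster (vertical axes, all spanning the same 1.3 log2 units around their own midpoint) on 4 control arrays (blue) and 4 cuprizone arrays (red), with symbols for the replicate number and the mean ± SD in black. The groups are apart for Ifngr1, Irf5 and Irf8 and overlap in the other 8 panels, and for the RefSeq cluster of Irf1 cuprizone replicate 2 sits among the controls.

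The 2 largest changes were those of interferon regulatory factors. Irf8 (transcript cluster 10576034), the myeloid lineage factor, stood at 7.01, 7.47, 7.29 and 7.38 on the controls and at 7.83, 7.91, 8.05 and 7.79 on the cuprizone arrays. All cuprizone arrays lay above the controls, and control replicate 1 was the lowest array. The mean went from 7.29 ± 0.20 to 7.89 ± 0.12 (SD, n = 4 each), which gives 0.61 ± 0.10 as the log2 fold change with its SE (limma adjusted p = 0.00269). The 95% interval of the fold was 1.31 to 1.76. Irf8 kept its call with any 1 array left out, with a log2 fold change between 0.51 and 0.66.

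Irf5 (transcript cluster 10536898), which drives inflammatory cytokine genes downstream of Toll-like receptors, stood at 7.06, 7.27, 7.09 and 7.18 on the controls and at 7.35, 7.45, 7.60 and 7.51 on the cuprizone arrays. The groups did not overlap, and cuprizone replicate 1 was closest to the highest control, replicate 2. The log2 fold change was 0.33 ± 0.07 (SE), with a 95% interval of 0.17 to 0.48 and a limma adjusted p of 0.0139. With 1 array left out the adjusted p ran from 0.0121 to 0.0461. The change of Irf8 was larger than that of Irf5 by 0.28 on the log2 scale, and the within-array difference did not overlap between the groups. Its exact permutation p was 0.0286, the smallest that 70 assignments allow, and 0.1429 after adjustment over the 5 pairs.

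Of all tested clusters, 8.24% had every cuprizone array above every control array and 7.09% had the reverse. Among the members the first pattern was shown by Ifngr1, Irf5 and Irf8, and the second by 0 of 10.

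Irf3, the factor that induces interferon beta after sensing of viral nucleic acid, stood at 7.46, 7.60, 7.52 and 7.69 on the controls and at 7.70, 7.82, 7.66 and 7.67 on the cuprizone arrays. The groups overlapped through control replicate 4. The log2 fold change was 0.15 ± 0.07 (SE), with a 95% interval of 0.0027 to 0.29, an unadjusted p of 0.0465 and a limma adjusted p of 0.23.

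The single-cDNA cluster of Irf1 stood at 7.16, 6.95, 6.88 and 7.15 on the controls and at 7.12, 6.98, 6.90 and 6.88 on the cuprizone arrays. Its groups overlapped. The fold change on the log2 scale was -0.07 ± 0.08 (SE), between bounds of -0.25 and 0.11 (95% interval, limma adjusted p = 0.731). The RefSeq cluster of Irf1 stood at 6.30, 6.21, 6.06 and 6.20 on the controls and at 6.73, 6.23, 6.66 and 6.46 on the cuprizone arrays. Here 3 cuprizone arrays lay above all controls and cuprizone replicate 2 lay among them. The log2 fold change of the RefSeq cluster was 0.33 ± 0.10 (SE), with a 95% interval of 0.10 to 0.55, an unadjusted p of 0.00862 and a limma adjusted p of 0.0811. Without cuprizone replicate 2 it was 0.42 with a limma adjusted p of 0.00974, and without both arrays numbered 2 it was 0.43 with 0.0253. Over the alternatives run, the adjusted p of the RefSeq cluster lay between 0.00974 and 1.0.

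The difference between the Irf1 clusters was tested after their values had been seen. The RefSeq cluster minus the single-cDNA cluster went from a mean of -0.84 on the controls to -0.45 on the cuprizone arrays, a change of 0.39 (exact two-sided permutation p = 0.0286, the smallest possible). Irf1 minus Irf3 changed by -0.21 with the single-cDNA cluster (exact permutation p = 0.0857, adjusted over 5 pairs p = 0.1429). With the RefSeq cluster the same difference changed by 0.18, the opposite sign, at an adjusted p of 0.3929 (exact permutation). The direction of Irf1 against Irf3 therefore depended on the cluster.

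**Figure D2:**
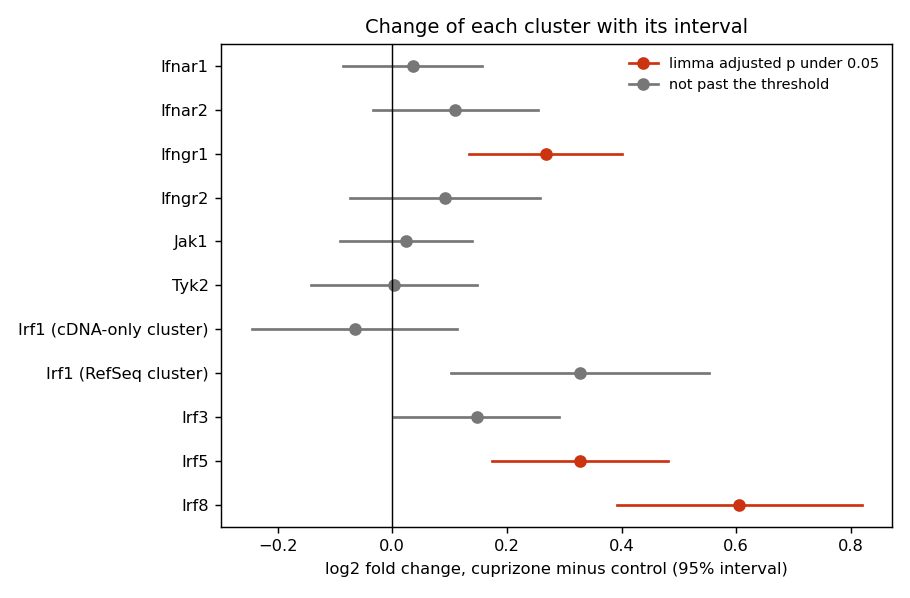
Log2 fold change of each cluster, cuprizone minus control (horizontal axis), with its 95% interval from limma, in red where the adjusted p over all clusters was under 0.05. Irf8 lies farthest to the right at 0.61, Irf5 and Ifngr1 follow at 0.33 and 0.27, and the RefSeq cluster of Irf1 has an estimate like that of Irf5 with a wider interval.

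The cuprizone arrays differed among themselves, and the members fell into different orders. The type I interferon list, 26 measured genes known to be induced by interferon alpha and beta, had a mean above the control mean by 1.68, 0.34, 1.64 and 0.93 on cuprizone replicates 1 to 4. The RefSeq cluster of Irf1 had the same order of arrays, at 0.54, 0.04, 0.47 and 0.27 above its control mean. Irf7 and Irf9, which amplify the interferon response, also had replicates 1 and 3 highest and replicate 2 lowest. Irf7 stood at 6.27 to 6.62 on the controls and at 8.53, 7.01, 8.65 and 7.65 on the cuprizone arrays. Irf9 stood at 7.80 to 8.04 on the controls and at 9.56, 8.39, 9.56 and 8.94 on the cuprizone arrays.

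The called members did not follow that order. Irf5 lay above its control mean by 0.20, 0.30, 0.45 and 0.36 on cuprizone replicates 1 to 4, and Ifngr1 by 0.14, 0.25, 0.37 and 0.32. For both, replicate 3 was highest and replicate 1 lowest. Irf8 lay above by 0.54, 0.62, 0.76 and 0.50, with replicate 3 highest and replicate 4 lowest. With 4 arrays these orders are a description, and no correlation was computed.

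Most microglial markers moved in the same direction as the called members. Of 19 measured microglial markers 13 rose and 0 fell, with a median log2 fold change of 0.51, and the mean level of the list lay between 8.13 and 8.30 on the controls and between 8.59 and 8.96 on the cuprizone arrays. Csf1r, the receptor that keeps microglia alive, rose by 0.61 ± 0.06 on the log2 scale, the receptor adaptor Tyrobp by 0.94 ± 0.08, the complement subunit C1qb by 1.14 ± 0.11 and Ly86 by 1.18 ± 0.09. The 6 markers that were not called, named after their values were seen, were P2ry12 at -0.06 ± 0.09, P2ry13 at -0.05 ± 0.10, Siglech at 0.05 ± 0.06, Selplg at 0.27 ± 0.10, Cx3cr1 at 0.27 ± 0.08 and Gpr34 at 0.31 ± 0.11. Without cuprizone replicate 1, Cx3cr1 was called (limma adjusted p = 0.0331). Several of them, such as the purine receptor gene P2ry12 and the fractalkine receptor gene Cx3cr1, are known as markers of resting microglia. So are some of the 13 that were called, and whether the calls followed this trait was not tested. The list mean lay above the control mean by 0.37, 0.44, 0.74 and 0.54 on cuprizone replicates 1 to 4, the order of arrays seen for Irf5 and Ifngr1. Single markers did not all share this order. The lowest cuprizone array was replicate 2 for Csf1r and C1qb, replicate 1 for Tyrobp and replicate 4 for Ly86. The part of microglial markers in the changes of Irf8, Irf5 and Ifngr1 was not tested.

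The called members were also set against the microglial list mean on the same array, each relative to its control mean, without a test. Irf8 minus the microglial mean was -0.26, 0.10, -0.02 and 0.18 on the controls and 0.17, 0.18, 0.03 and -0.04 on the cuprizone arrays, so the groups overlapped. Irf5 minus the microglial mean was -0.08, 0.04, -0.08 and 0.12 on the controls and -0.17, -0.14, -0.29 and -0.18 on the cuprizone arrays. Ifngr1 minus the microglial mean was -0.01, -0.08, 0.02 and 0.06 on the controls and -0.23, -0.20, -0.37 and -0.23 on the cuprizone arrays. For Irf5 and Ifngr1 every cuprizone array lay below every control array on this scale. The list mean rose on every cuprizone array, so a gene that rose less moves down on this scale. The members that were not called, with the single-cDNA cluster for Irf1, showed the same separation. Jak1, for example, ran from -0.09 to 0.07 on the controls and from -0.68 to -0.38 on the cuprizone arrays. The mean stands for markers that range from -0.06 to 1.18, and single markers such as Selplg and Gpr34, at 0.27 ± 0.10 and 0.31 ± 0.11, had estimates near those of Ifngr1 and Irf5.

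**Figure D3:**
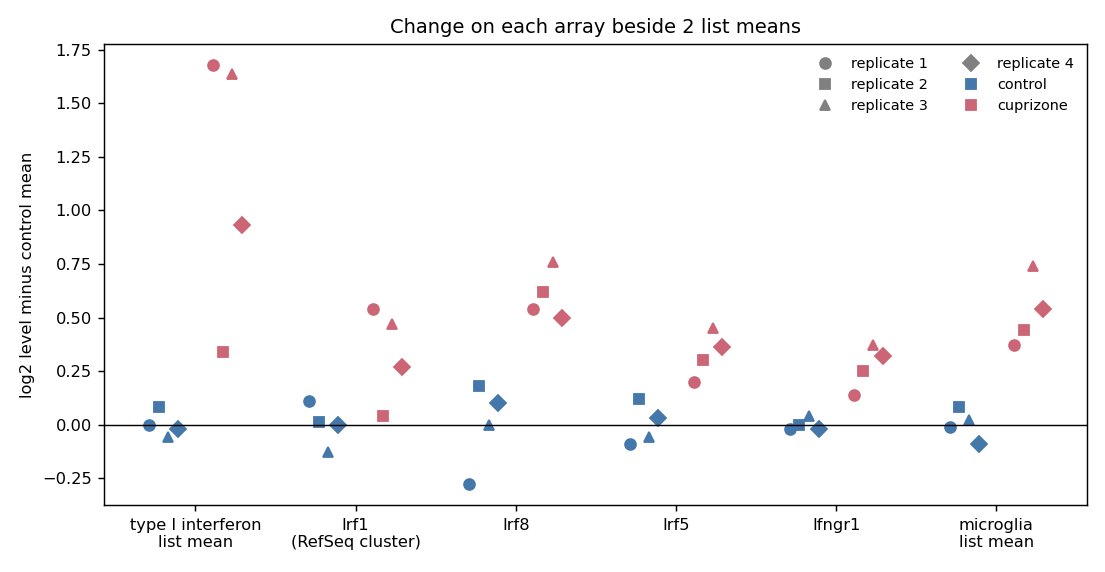
Log2 level minus the control mean (vertical axis) on each control (blue) and cuprizone (red) array, for 2 list means and 4 clusters, with symbols for the replicate number. Cuprizone replicate 2 (square) is the lowest cuprizone array for the type I interferon list and the RefSeq cluster of Irf1, whereas for Irf5, Ifngr1 and the microglial list the lowest is replicate 1 (circle).

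Markers of other cells were counted in the same fit. Markers of blood leukocytes were not called, with 0 of 11 T and NK cell genes (1 at an unadjusted p under 0.05 in limma), 0 of 5 B cell genes and 0 of 8 monocyte and neutrophil genes (0 unadjusted in both). The mean level of the T and NK list was 5.61 to 5.71 on the controls and 5.56 to 5.70 on the cuprizone arrays. That of the monocyte and neutrophil list was 5.09 to 5.22 and 5.08 to 5.25. Both lists lay below 7.45, the median of the mean levels of the tested clusters. Detection calls were not used, so whether the leukocyte clusters were above background, where a change could be seen, is not known. All 11 measured oligodendrocyte genes fell with cuprizone, at a median log2 fold change of -2.15, from a list mean of 10.9 to 11.2 on the controls. Neuronal genes were also measured at high levels, with a list mean of 11.1 to 11.3 on the controls and 11.1 to 11.2 on the cuprizone arrays, so RNA of neurons was present beside that of the white matter named in the labels. Of 9 astrocyte genes 4 rose and 2 fell, led by Gfap at 0.96 ± 0.06 and Slc1a2 at -0.60 ± 0.07. Limma called 0 of 7 endothelial genes (3 unadjusted), 0 of 9 neuronal genes (1), 0 of 8 choroid plexus and ependymal genes (1), 0 of 6 meningeal fibroblast genes (0) and 0 of 2 red blood cell genes (0). The choroid plexus and ependymal list varied between arrays of both groups. Relative to the control mean it stood at -0.40, 0.38, -0.69 and 0.71 on control replicates 1 to 4 and at -0.65, 0.41, -0.50 and 0.17 on cuprizone replicates 1 to 4. Ttr, the transthyretin gene of the choroid plexus, named after its values were seen, stood at 10.23, 12.32, 9.56 and 12.58 on the controls and at 9.84, 12.19, 9.91 and 12.11 on the cuprizone arrays. Replicates 2 and 4 of each group were thus the higher ones, and on the controls they were also the higher ones for Irf8 and Irf5. On the cuprizone arrays this did not hold, and replicate 3 was highest for both Irf8 and Irf5. The part of the choroid plexus variation in the members' values was not tested.

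The rest of the interferon pathway was read from 9 lists with 144 different measured genes. Of these, 55 rose and 1 fell, at a median log2 fold change of 0.25. Of all tested clusters, 4.71% were called higher and 3.52% lower, at a median of -0.01. The lists were chosen with earlier results of these data known, so the counts are a description. The counts of the lists are given in the order of the pathway, and the lists were not tested against each other.

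At the level of the ligands, 0 of 16 measured interferon genes passed in limma, with 1 at an unadjusted p under 0.05. That gene was Ifna16, at -0.24 ± 0.08 (limma adjusted p = 0.0963), and without cuprizone replicate 2 it was -0.32 with 0.00755. Ifnb1 and Ifng were looked up after the list had been seen, as the ligands of the receptors described. Ifnb1 stood at 5.09 to 5.30 on the controls and at 5.02 to 5.26 on the cuprizone arrays, a log2 fold change of -0.05 ± 0.07 (SE). Ifng stood at 6.01 to 6.37 and at 5.99 to 6.44, a log2 fold change of -0.02 ± 0.11. Detection calls were not used here, so whether these clusters were above background is not known.

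Among other receptors that signal through JAK1 or TYK2, 7 of 14 rose and 1 fell, with a median of 0.15. Osmr, the oncostatin M receptor, rose 3.88-fold from a mean of 7.38 ± 0.35 to 9.33 ± 0.27 (SD, n = 4 each), or by 1.96 ± 0.17 on the log2 scale (limma adjusted p = 4.82e-05). The interleukin 10 receptor chain Il10ra rose by 0.67 ± 0.10 and Il13ra1, shared by interleukins 4 and 13, by 0.59 ± 0.07, beside Il10rb. The member that fell was Il12rb1, a chain of the interleukin 12 and 23 receptors, at -0.29 ± 0.07 (limma adjusted p = 0.0268). It is named because it was the sole decrease, after its value was seen, and its adjusted p was 0.0534 to 0.0822 without control replicate 1, 2 or 4 or cuprizone replicate 1, 3 or 4.

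Downstream of the receptors, 2 of 8 further kinases, STATs and partners rose and 0 fell, with a median of 0.08. These were Stat3, the main transducer of gp130 cytokines, at 0.82 ± 0.08, and Irf9, a transcription factor of the type I interferon response, at 1.21 ± 0.22. Of the 4 other IRF genes measured, 3 rose, with a median of 0.76. Irf7, the factor that amplifies interferon alpha production, rose 2.75-fold (1.46 ± 0.30), Irf9 2.32-fold and Irf2, an antagonist of IRF1 at many promoters, 1.24-fold (0.31 ± 0.07). The call of Irf2 was lost without control replicate 1, 2 or 4 or cuprizone replicate 1, 3 or 4, at limma adjusted p of 0.0531 to 0.0668. Irf9 is counted in both lists.

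Of 27 sensors and adaptors above IRF3, IRF5 and IRF7, 11 rose and 0 fell, with a median of 0.23. The receptor for bacterial ribosomal RNA Tlr13 rose by 0.70 ± 0.08, the lipoprotein receptor Tlr2 by 0.56 ± 0.08, the shared adaptor Myd88 by 0.77 ± 0.11 and Unc93b1, the chaperone of endosomal Toll-like receptors, by 0.57 ± 0.09. Of 14 negative regulators 3 rose and 0 fell, with a median of 0.02. Usp18, which blocks JAK1 at IFNAR2, rose 4.0-fold (2.00 ± 0.44), at a limma adjusted p of 0.0171 and of 0.0506 without control replicate 4. Socs3, an inhibitor of gp130 signalling, rose by 0.26 ± 0.05 and the phosphatase Ptpn6 by 0.24 ± 0.05.

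The target genes had the highest medians beside the IRF list. Of 26 genes induced by type I interferon 16 rose and 0 fell, with a median of 0.92. Among them Ifit1, an antiviral RNA-binding protein, rose by 2.71 ± 0.46, Lgals3bp by 2.01 ± 0.22, Trim30a by 1.98 ± 0.32 and Ifitm3, which blocks viral entry, by 1.92 ± 0.27. Of 23 genes induced by interferon gamma and IRF1 10 rose, 0 fell and 13 were not called, with a median of 0.37. The genes named next are those with the smallest p. The chemokine Cxcl10 rose by 3.59 ± 0.43, the immunity-related GTPase Irgm1 by 1.69 ± 0.31, the guanylate-binding protein Gbp5 by 1.06 ± 0.19 and the peptide transporter subunit Tap1 by 0.88 ± 0.15. Many genes of these lists answer to both interferon types.

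Among myeloid transcription factors, the group to which Irf8 belongs by function, 4 of 13 rose and 0 fell, with a median of 0.20. Spi1, which encodes PU.1, the DNA-binding partner of IRF8, stood at 7.01, 7.09, 7.02 and 6.98 on the controls and at 7.68, 7.49, 7.85 and 7.50 on the cuprizone arrays. It rose by 0.61 ± 0.08 on the log2 scale (limma adjusted p = 0.000788), next to 0.61 ± 0.10 for Irf8. Runx1 rose by 1.69 ± 0.21 and Klf4 by 0.54 ± 0.10. Sall1, a factor of microglial identity, rose by 0.25 ± 0.07, and its call was lost without control replicate 1, 3 or 4 or cuprizone replicate 1, 3 or 4, at limma adjusted p of 0.0673 to 0.119.

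**Figure D4:**
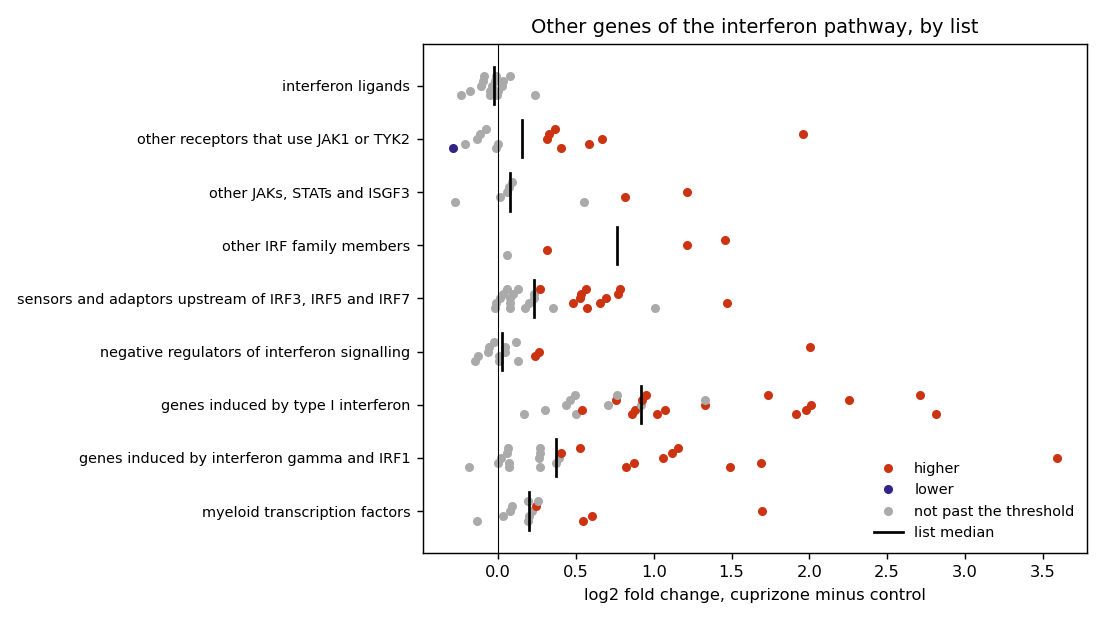
Log2 fold change, cuprizone minus control (horizontal axis), of every measured gene on the 9 pathway lists, with genes called higher in red, lower in blue and the rest in grey, and a black bar at each list's median. The ligand list has 0 called genes and a median of -0.03, while the type I interferon list has 16 of 26 called and a median of 0.92.

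For each called member, the genes with the most similar pattern were found by the root mean square difference of log2 levels, each minus its control mean, over the 8 arrays and 18614 genes. Nearest to Irf8 were the kinase-like gene Stk40 (0.07) and the corepressor Tle3 (0.09), which rose by 0.60 ± 0.08 and 0.59 ± 0.08. Nearest to Irf5 were the organic anion transporter Slco2b1 (0.03) and the dynein chain Dnaic2 (0.04), which rose by 0.31 ± 0.07 and 0.30 ± 0.07. Nearest to Ifngr1 were the membrane protein Tmem104 (0.03) and the signal recognition particle receptor subunit Srprb (0.03), which rose by 0.25 ± 0.06 and 0.23 ± 0.06. Nearness over 8 arrays is a description. With 1 array left out, Tmem104 lost its call in all but 1 of the 8 cases (kept without cuprizone replicate 1), as did Srprb, at limma adjusted p of 0.0646 to 0.117. Dnaic2 lost its call without control replicate 1 or 3 or cuprizone replicate 3 or 4, at 0.061 to 0.0748.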

How the data were processed

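Transcript levels were measured on Affymetrix Mouse Gene 1.0 ST arrays, which summarise probes along a transcript as a transcript cluster. Log2 levels are what was deposited, and the submitters' processing notes name Affymetrix Expression Console, RMA and Transcriptome Analysis Console, without versions. Arrays brought to like distributions hide a shift shared by most transcripts, and folds of dim clusters are compressed. The table held 28944 clusters, of which 21789 had 1 gene symbol in the platform annotation, 1621 several and 5534 none. The 23410 clusters with a symbol were tested.

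Groups came from the sample titles, which call the arrays biological replicates. Limma 3.58.1 in R 4.3.3 fitted the 2 groups at default settings, with no covariate or filter, with Benjamini-Hochberg adjustment over all tested clusters. Adjusted p for genes come from limma, and ± after a log2 fold change is its SE. In data simulated for the cuprizone comparison (23410 clusters), the fit recovered 54 of 67 genes changed 1.5-fold, 67 of 67 changed 2-fold and 66 of 66 changed 4-fold, and 8 of the 195 calls over all folds were false. The simulated noise was independent between clusters, and fewer clusters changed than the 1102 higher and 823 lower called in the data. No fold below 1.5 was simulated, so no recovery rate is known for changes as small as those of Irf5 and Ifngr1. Differences between paired members were tested by exact permutation over 70 assignments of arrays.

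The members and lists were chosen with earlier results of these data known. Named were all members, up to 4 called genes with the smallest p of each list, or the 1 with the smallest p where none was called, and the 2 nearest genes of each called member, leaving out predicted genes and clone names. On the lists, 30 entries without a single-symbol cluster were not analysed here. No scan dates were used, so no batch was tested, and the number of arrays limits the precision. The alternatives were the replicate block, leaving out arrays, other variance priors, rescaling, filters on dim clusters, other sets of clusters, array weights and a test against a 1.2-fold change.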

Additional observations from a re-analysis of the deposited data

Results flagged for a closer look

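In 150 groups of 4 arrays, formed by the named genes, 9 held an array whose gap to its nearest neighbour was too large for the group's range by Dixon's criterion at the 95% level, where chance marks about 1 in 20. None of the 9 was a member. Control replicate 2 stood apart 4 times. It was at 7.89 for Osmr, against 7.15 to 7.25 on the other controls, at 7.96 for Cxcl10, against 6.41 to 6.64, at 6.73 for Tap1, against 6.65 to 6.66, and at 10.90 for Ugt8a, a myelin lipid enzyme, against 11.13 to 11.18. Cuprizone replicate 2 was at 9.92 for Stat3, against 10.06 to 10.08 on the other cuprizone arrays, and at 4.48 for Plac8, against 4.64 to 4.67. Cuprizone replicate 3 was at 10.62 for Ly86, against 10.30 to 10.31. Cuprizone replicate 1 was at 8.66 for Tmem104, against 8.86 to 8.89, and control replicate 4 was at 7.15 for Socs3, where each of the other controls was at 7.24.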

How the results depend on the processing

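The count of 3 higher and 0 lower members was the same with the replicate number as a block, which called 892 clusters higher and 636 lower. Of the named genes, Ptpn6 (limma adjusted p = 0.0528), Sall1 (0.0849), Tmem104 (0.061), Srprb (0.0817) and Il12rb1 (0.0725) were not called with the block. The labels state no pairing, so the numbers were not taken as pairs. Same-numbered arrays correlated at -0.186 to 0.21 in their deviations. The highest correlation of each control array with a cuprizone array of another number was 0.025 to 0.165. Whether arrays of the same number share a structure was not tested. Leaving out 1 array gave 2 to 3 higher members, 795 to 1122 clusters higher and 609 to 741 lower, and leaving out both arrays numbered 2, a choice made after seeing the data, gave 2. The test against a 1.2-fold change called 231 clusters higher and 198 lower, 0 members, and 20 higher and 0 lower genes of the pathway lists. Keeping clusters above the median level left 2 members called and 32 higher and 0 lower pathway genes, since fewer genes are tested, Irf5 among those left out. The single lower pathway gene became 0 with the block, 0 to 2 with 1 array left out and 2 without both arrays numbered 2; higher pathway genes were 40 to 67 with 1 array left out.

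Tyk2 reversed, to -0.0197 after quantile normalization again, to -0.0181 after centring and to -0.0425 without both arrays numbered 2, and ranged from -0.0394 to 0.0451 with 1 array left out; the cause was not tested. Likewise Jak1 ranged from -3.4e-05 to 0.0441, Ifng from -0.0946 to 0.0547, the red blood cell gene Alas2 from -0.0468 to 0.0933, P2ry12 from -0.102 to 0.0373, P2ry13 from -0.131 to 0.0204 and Ttr from -0.70 to 0.31. Alas2 was -0.0026 with array weights. Irf1 minus Irf3 was 0.18 with the RefSeq cluster. Leaving out 1 array, the changes ranged from -0.10 to -0.05 for Ifnar1 minus Ifnar2, 0.13 to 0.21 for Ifngr1 minus Ifngr2, -0.0010 to 0.0601 for Jak1 minus Tyk2, -0.27 to -0.13 for Irf1 minus Irf3 and 0.21 to 0.32 for Irf8 minus Irf5. With 4 pairs the sign-flip test cannot go below 0.125 (exact).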
